A study of Mus musculus with 61 samples.

Results

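Sox2 is a transcription factor of pluripotent and neural progenitor cells that can bind DNA wrapped in nucleosomes, and it is one of the factors that turn fibroblasts into pluripotent cells. Much of the binding of such factors lies outside promoters, and enhancers can act on genes over long stretches of DNA. CAF-1 is the histone chaperone that loads newly made histones onto replicating DNA, and Chaf1a is its largest subunit.

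The 2702 regions described here are Sox2 sites that were found with each of 3 hairpins and that lay more than 500 kb from every promoter and enhancer listed in a second table of the study. The binding positions of 3 lists were pooled, and neighbours within 200 bp were joined into 1 site. This gave 25432 sites, of which 11004 were held by all 3 lists and are termed shared. A shared site was termed remote when each of its positions was more than 500 kb from any listed start site or enhancer on its chromosome. The remote sites were 24.6% of the shared sites (exact Clopper-Pearson 95% interval 23.8 to 25.4%), and the 8302 other shared sites serve as the comparison. The sites were chosen by measured values, their presence in all 3 lists and their distance, so neither of these is a finding.

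All groups were mouse embryonic fibroblasts of strain Black6-129X1/SvJ from E13.5 embryos with the genotype Col1a1::tetOP-OKSM and R26-M2rtTA, in which doxycycline switches on Oct4, Klf4, Sox2 and Myc from 1 cassette. Cells were taken at day 3 of reprogramming in serum/LIF medium with ascorbate and doxycycline at 2 ug/ml, so every group, the control included, expressed Sox2 from the transgene. They carried a hairpin against Renilla luciferase (control), or Chaf1a.166 or Chaf1a.2122 against Chaf1a. Each hairpin had 1 Sox2 immunoprecipitate and 1 input, and the knockdown itself was not checked here. The second table lists 5513 start sites and 14265 enhancers of mouse embryonic stem cells with Sono-seq values, a measure of DNA released by sonication, as 1 value per condition from 3 libraries each of CAF-1 knockdown and Renilla.

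With 1 list per hairpin there is no replicate error for any value below, and no p-value is given. Intervals cover counting error only and take sites as independent, which neighbouring sites are not. Differences between remote and other sites are set beside the number of the 20 chromosomes (19 autosomes and X) on which they point the same way. All 20 come from the same single libraries, so these counts do not replace replicates and cannot show that a difference would recur. The lists held 17681 positions for Renilla, 15888 for Chaf1a.166 and 19319 for Chaf1a.2122. The remote shared sites took 2711, 2707 and 2717 of them, which is 15.3%, 17.0% and 14.1% of each list. Read depth is unknown, so absence from a list means only that no position passed its threshold. All coordinates are mm9. No sequence of these sites is printed, since no genome of that build was used here.

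The label of remoteness was first set against a gene table of assembly GRCm38.p6, used only for names and for the order of genes. Remote here means remote from the listed regions, not from genes. Only 4899 of 21631 coding genes of that table were on the list of start sites. The remote sites fell into 453 of the 5533 intervals between neighbouring listed start sites or beyond the outermost one, and 445 of these could be placed in the gene table. Of the 2672 sites in placed intervals, 2669 shared their interval with at least 1 coding gene that was not listed. The median placed interval held 9 such genes and the most held 237, and the median width was 2.49 Mb. The distance of a site to these unlisted genes was not measured, because their coordinates belong to another build.

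Distances to the nearest listed region ran from 500.7 kb to 6069 kb, with a median of 959.1 kb and quartiles of 685.4 and 1387 kb. The 3 sites just inside the limit lay 500.7, 500.9 and 501.4 kb away. The first of them, at chr17:72376942-72376978 beyond Ndc80, ranked 13223 in the Renilla list, 6891 in the Chaf1a.166 list and 6611 in the Chaf1a.2122 list. The 3 shared sites just short of it lay 499.7, 499.5 and 499.3 kb away, and the first of these ranked 3920, 3961 and 3847 (chr3:78792186-78792270). The limit falls within a continuous run of distances.

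Remote ground held fewer shared sites per length than ground near listed regions. Ground more than 500 kb from a listed region made up 1116 Mb, or 43.6% of the measured span, and held 2.42 shared sites per Mb (exact Poisson 95% interval 2.33 to 2.51). The other 1442 Mb held 5.76 per Mb (5.63 to 5.88). The density fell in every step of distance, from 10.3 per Mb within 10 kb of a listed region to 5.60 at 10 to 100 kb, 4.92 at 100 to 250 kb and 3.99 at 250 to 500 kb. It went on falling inside the remote ground, from 3.16 per Mb at 500 to 1000 kb to 2.37 at 1000 to 2000 kb and 1.26 beyond 2000 kb. None of the intervals of these 7 densities overlapped its neighbour's. Stretches without sequence in the assembly were not removed from the span, and their part in the decline was not tested.

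**Figure D1:**
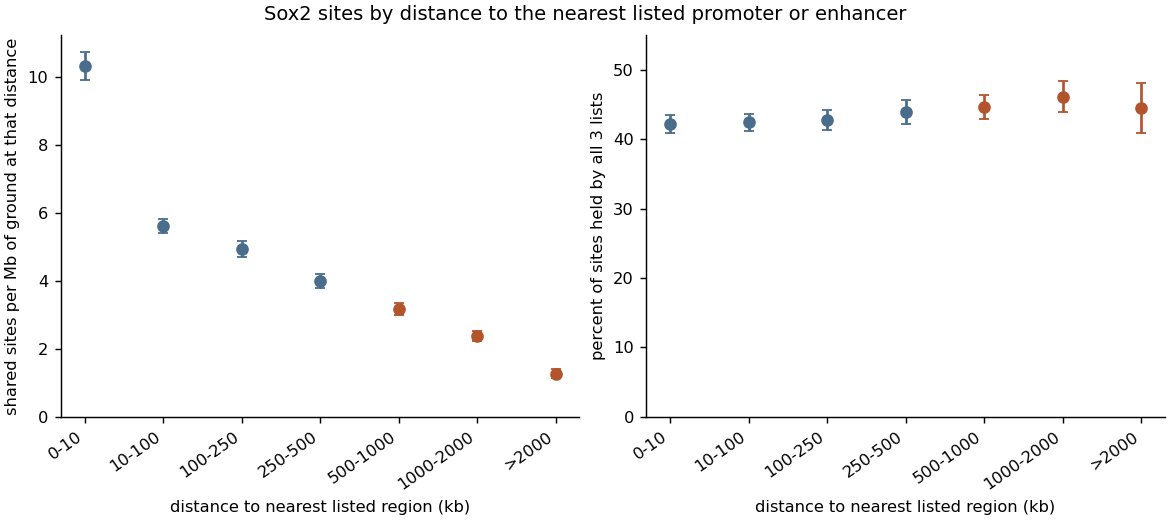
The left panel plots shared Sox2 sites per Mb of ground, and the right panel the percentage of all joined sites held by all 3 lists, in 7 classes of distance (kb) to the nearest listed promoter or enhancer. Points are values over all chromosomes, bars are 95% intervals (exact Poisson on the left, exact Clopper-Pearson on the right), and classes beyond 500 kb are in brown. Density falls from 10.3 to 1.26 sites per Mb, while the percentage held by all 3 lists stays between 42.2 and 46.1%.

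Among chromosomes, 18 and X had the highest shares of remote sites and 19, 11 and 7 the lowest. On chromosome 18, 143 of 383 shared sites were remote (37.3%, 32.5 to 42.4%), and on X 62 of 188 (33.0%, 26.3 to 40.2%). Chromosome 19 had 37 of 331 (11.2%, 7.99 to 15.1%), chromosome 11 had 92 of 710 (13.0%, 10.6 to 15.7%) and chromosome 7 had 98 of 609 (16.1%, 13.3 to 19.3%). The other 15 chromosomes lay between 21.6% (chromosome 15) and 28.9% (chromosome 10). In number, chromosomes 2 and 1 led with 207 and 204 remote sites.

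The amount of remote ground differed between chromosomes, and the shares followed it only in part. Chromosome 11, with 546 listed start sites and 1420 listed enhancers, had only 33.7 Mb of it, whereas X, with 139 start sites and 162 enhancers, had 99.3 Mb. Chromosome 18, with the highest share of remote sites, had 46.2% of its span as remote ground, less than the 51.9% of chromosome 14, where 28.8% of shared sites were remote. Chromosomes 7 and 10 had 41.4% and 41.3% of remote ground, and 16.1% and 28.9% of remote sites. On each of the 20 chromosomes the share of sites that were remote was below the share of the span that was remote, by 8.86 percentage points on chromosome 18 and by as much as 28.9 on X. Density was therefore lower in the remote ground of all 20, with a ratio of remote to near density from 0.271 on chromosome 7 to 0.694 on chromosome 18. The X chromosome was thinly covered on both sides of the limit, with 0.624 remote sites per Mb (0.479 to 0.800) against 2.06 other shared sites per Mb. Its high share of remote sites thus stood beside the lowest remote density of any chromosome. The sex of the embryos is not in the labels used here, so the number of X copies is unknown.

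**Figure D2:**
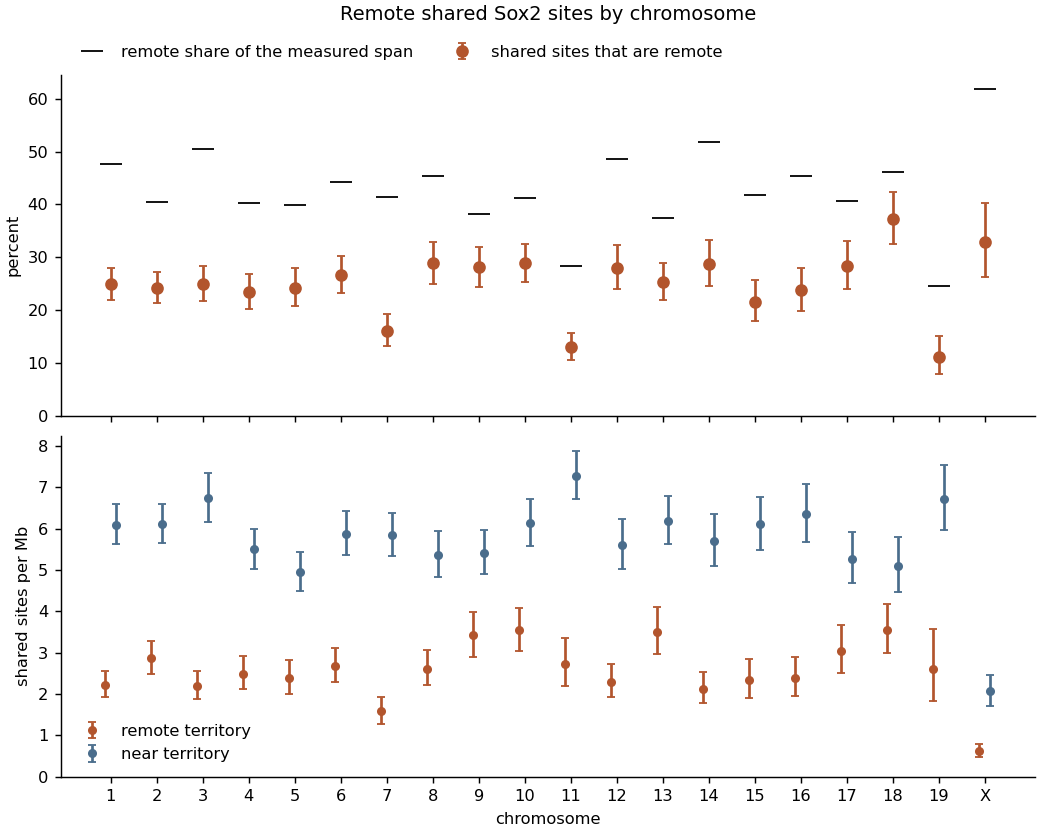
The upper panel plots, for each of 20 chromosomes, the percentage of shared Sox2 sites that were remote (points, with exact Clopper-Pearson 95% bars) and the percentage of the measured span that was remote ground (black dashes). The lower panel plots shared sites per Mb in remote (brown) and near ground (blue), with exact Poisson 95% bars. Every brown point lies below its dash and below its blue neighbour, and X is lowest on the density axis.

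By score, the remote sites ranked much like the other shared sites. Each position has a score from the authors, and its rank within its own list was turned into a percentile, with 100 for the best position. In the Renilla list the median percentile was 69.8 for remote sites (quartiles 48.9 and 85.5) and 67.6 for the others (46.4 and 84.1). In the Chaf1a.2122 list it was 72.0 (51.7 and 86.2) against 70.5 (50.5 and 85.6). In the Chaf1a.166 list the order was the other way, with 64.0 (40.5 and 82.6) against 65.0 (42.7 and 82.7). The quartile ranges of the 2 sets overlapped almost fully in every list. The remote median was above the other on 16 of 20 chromosomes for Renilla, on 15 for Chaf1a.2122 and on 10 for Chaf1a.166.

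The authors' enrichment ratios of immunoprecipitate over input gave medians of 10.3 for remote and 10.3 for other shared sites in Renilla, 9.81 and 9.62 in Chaf1a.166, and 10.0 and 9.22 in Chaf1a.2122. The best 100 and the best 1000 positions of each list were all in shared sites. Remote sites made up 25, 21 and 21 of the best 100 in Renilla, Chaf1a.166 and Chaf1a.2122. Of the best 1000 they made up 275, 267 and 254. In the Renilla list that is 27.5% (24.8 to 30.4%), and in the Chaf1a.2122 list 25.4% (22.7 to 28.2%), beside 24.6% of all shared sites. At the other end, the lowest 10% of each list held 70, 114 and 60 remote sites in the same order. Other shared sites there numbered 241, 329 and 198, so remote sites were 22.5%, 25.7% and 23.3% of the shared sites. The medians of the farthest sites were not below those of the nearest. The 346 shared sites beyond 2000 kb had median percentiles of 71.9, 64.4 and 75.6 in Renilla, Chaf1a.166 and Chaf1a.2122, against 65.5, 64.0 and 69.8 for the 2382 within 10 kb. Each of these comparisons is within 1 list, and percentile levels of different lists are not compared. Below, percentiles are averaged over the lists to order and band sites, and ranks are correlated between lists.

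The ranks of a remote site went together across lists about as closely as those of other shared sites. As a description over 2702 sites, Spearman's rho was 0.767 for Renilla and Chaf1a.166, 0.785 for Renilla and Chaf1a.2122 and 0.782 for the hairpins against Chaf1a. Over the 8302 other shared sites it was 0.753, 0.782 and 0.777. Sites on all chromosomes come from the same libraries.

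The 10 remote sites with the best mean percentile over the lists ranked 71 or better in all 3. They lay on 7 chromosomes, between 528.9 and 2243 kb from a listed region, with enrichment ratios from 13.7 to 332.1. Of these, 9 are given here with the listed genes on either side, and with unlisted coding genes between these where there were up to 8.

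The best lay at chr12:38012058-38012063, between Ankmy2 and Etv1, and ranked 16 in Renilla, 9 in Chaf1a.166 and 8 in Chaf1a.2122. Its enrichment was 105.8, 332.1 and 93.9, with lower bounds of 32.7, 63.3 and 29.0, while its scores were 258.4, 265.7 and 270.7. The unlisted genes between its flanks include Sostdc1, which encodes an antagonist of BMP and Wnt signalling, and Meox2, a homeobox factor of mesoderm. The next, at chr10:109341473-109341492 between Pawr and E2f7, ranked 13, 17 and 14, with Syt1, a calcium sensor of synaptic vesicles, Nav3 and Gm5136 between its flanks.

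A site at chr1:61152467-61152471 between Raph1 and Ino80d ranked 21, 20 and 23, in an interval with Cd28, Ctla4 and Icos, which encode surface receptors of T cells, the polarity gene Pard3b and the guidance receptor Nrp2. One at chr5:131653229-131653253 between Rabgef1 and Wbscr16 ranked 37, 28 and 19. The 8 unlisted genes there were Tmem248, Sbds, Tyw1, Caln1, A330070K13Rik, Galnt17, Auts2 and Castor2. Sites at chr16:26211669-26211683 (Lpp to 1600021P15Rik, 12 unlisted genes) and chr17:15647897-15647929 (Wdr27 to BC018101, 17 unlisted genes) ranked 22, 43 and 25, and 32, 36 and 34. The last 3 were chr6:50668821-50668836 (D330028D13Rik to Hnrnpa2b1, ranks 23, 71 and 38), chr5:91466922-91466940 (Cox18 to Scarb2, ranks 60, 39 and 42) and chr12:79326389-79326396 (Max to Plekhh1, ranks 39, 70 and 46). The 3 positions of these 10 sites agreed to within 4 to 32 bp. Of the 10, 2 had another shared site within 12500 bp.

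The farthest remote site, at chr15:18855519-18855549, lay 6069 kb from a listed region, between 6030458C11Rik and Basp1, and ranked 3751 in Renilla, 4991 in Chaf1a.166 and 2784 in Chaf1a.2122. Its interval of 12.6 Mb held 12 remote sites and 8 unlisted coding genes, of which 5 encode cadherins (Cdh6, Cdh9, Cdh10, Cdh12 and Cdh18), proteins of cell-to-cell adhesion. Of the 5 farthest sites, 3 were in this interval and 2 beyond Acadm, the last listed start site of chromosome 3. One of these, at chr3:159542053-159542199, ranked 7547, 9671 and 14081.

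The 3 lists placed a remote site almost as closely together as any other shared site. Joining neighbours within 200 bp limits the spread in both sets, so its size is partly set by the rule. Among the 2680 remote sites with exactly 1 position per list, the 3 positions spanned a median of 48 bp (quartiles 28 and 74 bp). Among 8251 other shared sites the median was 45 bp (27 and 72 bp). The share within 50 bp was 53.3% (51.4 to 55.2%) for remote and 55.8% (54.7 to 56.9%) for other shared sites, and the share within 100 bp was 88.5% and 90.01%. The remote median was the wider on 13 of 20 chromosomes. Between any 2 lists the median offset was 28 bp at remote sites and 27 or 28 bp at the others. The median signed offset at remote sites was between -1 and 2 bp, so no list was displaced to one side. Only 22 remote sites (0.814%) had more than 1 position in a list, against 0.614% of the others.

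Spread followed rank in both sets. For mean percentiles of 0 to 25 the median span was 67 bp at remote and 70 bp at other shared sites. It was 62 and 59 bp for 25 to 50, 53 and 49 bp for 50 to 75, and 42 and 39 bp for 75 to 90. In the best band, above 90, it was 27 bp in both. The remote median was thus 3 or 4 bp wider in the 3 middle bands and not in the outer ones.

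Close positions were not limited to the best sites. At chr10:105017874-105017875 (Dusp6 to Ppp1r12a) the 3 positions lay within 1 bp of each other, with ranks of 5553, 2269 and 2850. So did those at chr17:44003197-44003198 (Mut to Gm9104) and at chr6:61013305-61013306 (Abcg2 to Smarcad1), the latter with ranks of 12365, 14601 and 10398. The widest span, 249 bp at chr9:95537711-95537960 (Plscr1 to Atp1b3), had ranks of 15477, 9346 and 8920. The other 4 of the 5 widest spanned 218 to 236 bp, on chromosomes 1, 9, 2 and 7. None of the 5 ranked better than 3213 in any list.

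**Figure D3:**
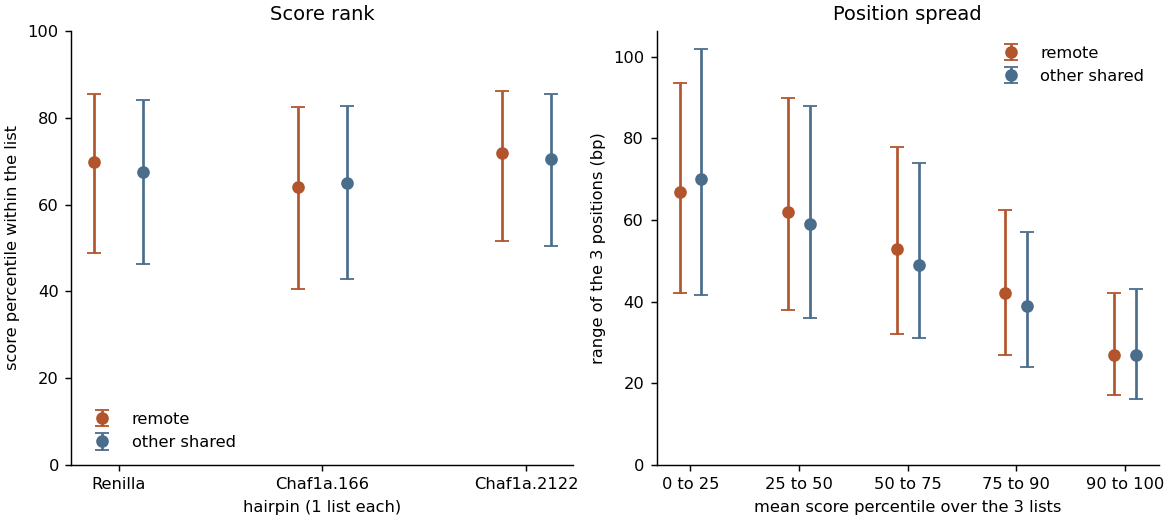
The left panel plots the authors' score as a percentile within each hairpin's list, and the right panel the range in bp of the 3 positions of a site in 5 bands of mean percentile, for remote (brown) and other shared sites (blue). Points are medians and bars reach from the lower to the upper quartile over sites. The 2 sets lie beside each other in each list, and the median range falls from 67 to 27 bp for remote sites as the percentile rises.

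Remote sites stood alone more often. Another shared site lay within 12500 bp of 603 remote sites (22.3%, 20.8 to 23.9%) and of 2337 other shared sites (28.1%, 27.2 to 29.1%), and the remote share was the lower on 15 of 20 chromosomes. Within 5 kb the shares were 13.5% and 16.2%, and within 50 kb 50.3% and 60.0%. The median distance to the nearest shared site was 49.3 kb for remote and 34.1 kb for other shared sites. By distance the share with a neighbour within 12500 bp was 34.3% within 10 kb of a listed region, between 24.9% and 26.6% from there to 500 kb, and 22.3%, 23.6% and 18.8% in the remote classes. Density moved with it, being 2.42 against 5.76 shared sites per Mb, and its part in the difference was not tested.

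Remote sites with and without such a neighbour had median percentiles of 70.2 and 69.5 in Renilla, 65.3 and 63.5 in Chaf1a.166, and 73.5 and 71.3 in Chaf1a.2122. The other shared sites showed the same order in all 3 lists.

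When remote sites within 12500 bp of each other were chained, 2100 stood alone, 218 chains had 2 sites, 42 had 3 and 6 had 4. The remaining chains had 7 and 9 sites, and these were the longest of any chains of shared sites. The next, on chromosomes 12 and 6, had 6 sites each and lay 26.8 and 145.7 kb from a listed region.

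The chain of 9 sites covered 43.4 kb at chr2:117693322-117736747, between Scg5 and Srp14, and lay at least 555.3 kb from a listed region. Its sites were of middling score, with ranks from 1542 to 9330 in Renilla, 2133 to 14171 in Chaf1a.166 and 1954 to 12111 in Chaf1a.2122. A different site of the chain was the best in each list. The chain of 7 covered 19.2 kb at chr4:29010251-29029432, between 6230409E13Rik and Ankrd6, at 3911 kb from the nearest listed region. It was stronger, with median ranks of 1585, 1960 and 1614, and the sixth site was the best in all 3 lists, at 711, 441 and 382. Its weakest site ranked 13229 in Renilla, although none was below 4272 in Chaf1a.166 or 6608 in Chaf1a.2122.

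Of the 6 chains of 4 sites, which tie in size, 3 are given here and the rest were not described. In each of these 3 the same site was the best in all 3 lists. The chain at chr6:50663588-50670663 spanned 7.08 kb and held the site ranked 23, 71 and 38 that is among the 10 best, while the median ranks of the chain were 3655, 3887 and 3779. At chr16:86136596-86144626 (Atp5j to Bach1) the best site ranked 270, 417 and 400, with median ranks of 4755, 4950 and 6243. At chr11:18827416-18845848 (Pno1 to Spred2) it ranked 2464, 1101 and 1546, with median ranks of 3562, 5094 and 6070, and another site of the chain ranked 2710 in Renilla. The last interval holds Meis1, a homeobox factor of the same family as Meis2 in the interval of the longest chain.

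Remote sites were spread unevenly over the intervals. Of the 453 intervals, 80 had a single remote site, the median had 4, and 87 intervals with 10 or more held 1301 sites (48.1%). Seen as gaps between listed regions of either kind, 624 gaps were wide enough to hold a remote site and 440 (70.5%) held one. Gaps with a remote site had a median width of 2.44 Mb and those without 1.33 Mb. The widest empty gap was 10.6 Mb, on X. Another 85 remote sites lay beyond the outermost listed region of a chromosome.

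The fullest gap, from Scg5 to Srp14 on chromosome 2, was 4.62 Mb wide and held 36 remote sites, the chain of 9 among them. Of its 16 unlisted coding genes, those in a list or family used here are Meis2, a homeobox factor of developing brain and limb, Actc1, the cardiac actin, and Zfp770, a zinc finger gene. The median percentiles there were 71.0 in Renilla, 61.5 in Chaf1a.166 and 69.8 in Chaf1a.2122, and the median span of the 3 positions was 64 bp. The best site of the gap, at chr2:115136064-115136086, ranked 311, 289 and 187.

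The gap from 2610001J05Rik to Ndufa5 on chromosome 6 held 32 remote sites in 10.7 Mb with 31 unlisted genes, of which Foxp2, a forkhead factor of the nervous system, and Slc13a1, a solute carrier, belong to families listed here. Its best site, at chr6:17616455-17616468, ranked 109, 102 and 405. From Ranbp3 to Ppp4r1 on chromosome 17 there were 26 sites in 9.32 Mb with 43 unlisted genes, and the best ranked 557, 660 and 624. Its unlisted genes include members of the epithelial list and of the macrophage and blood list. From 6230409E13Rik to Ankrd6 on chromosome 4 there were 25 in 11.1 Mb, in an interval with Pou3f2 (a POU factor of neural progenitors), Fut9 (the enzyme that makes the SSEA-1 antigen) and Epha7 (an ephrin receptor). The gap from Rab30 to Kctd21 on chromosome 7 held 23 sites in 4.56 Mb, with Ddias, Prcp, Fam181b, Gm15501, Tenm4, Nars2, Gab2 and Usp35 as its 8 unlisted genes. Its sites were of higher rank than the median remote site in each list (median percentiles 76.1, 74.9 and 81.5) and had a median span of 30 bp. Per Mb of remote ground the 5 fullest gaps, in the order given, held 9.94, 3.31, 3.13, 2.48 and 6.47 remote sites. Over all remote ground the value was 2.42. The gaps of 9.32 to 11.1 Mb were thus the least dense of the 5, and their high counts go with their width.

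**Figure D4:**
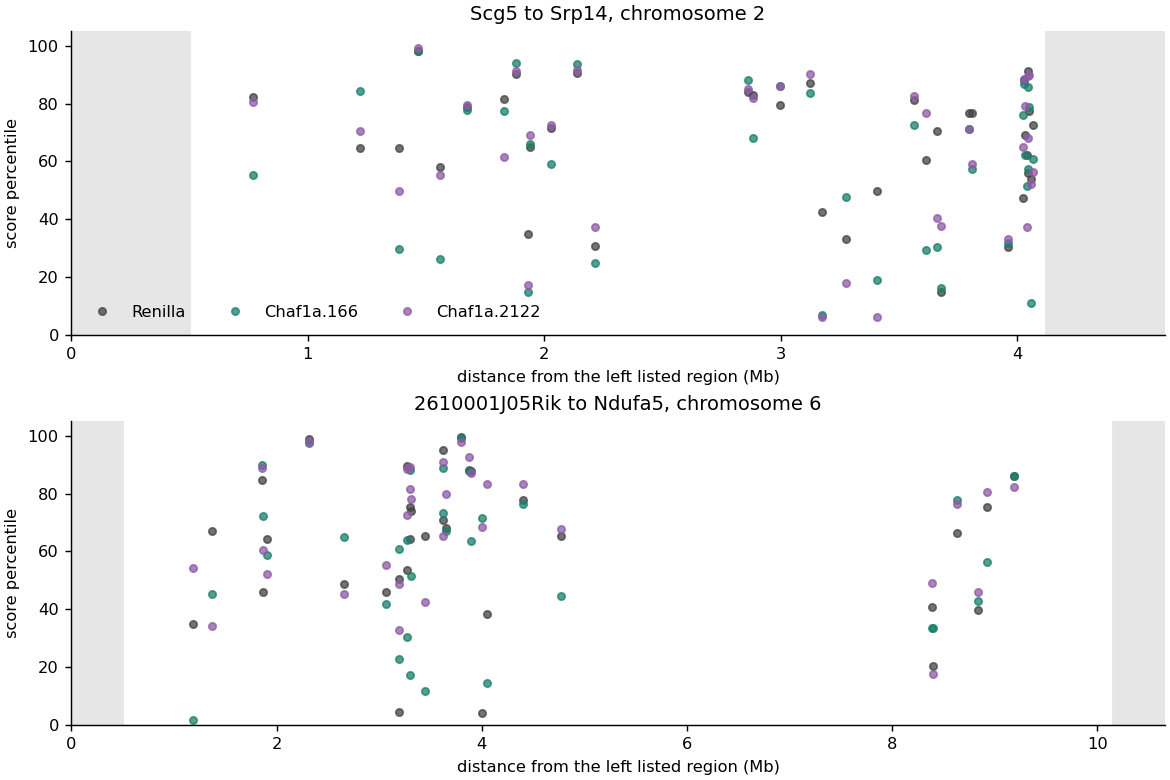
Each panel shows 1 of the 2 gaps with most remote sites, with the distance from its left listed region (Mb) on the horizontal axis and the score percentile within each hairpin's list on the vertical axis. Every remote site gives 3 points, 1 per hairpin, and grey marks the ground within 500 kb of a flanking listed region. The 36 sites of the Scg5 to Srp14 gap include the 9-site chain beside the right grey band, and the 32 sites of the 2610001J05Rik to Ndufa5 gap leave its middle empty.

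The unlisted genes that share an interval with a remote site were counted by gene lists. Of all 16732 unlisted coding genes, 5399 (32.3%) were in such an interval. Of the 7560 in an interval wide enough to hold a remote site, these were 71.4%. Neighbouring genes share an interval, so the counts are of genes and not of independent places, and a shared interval says nothing on whether a site acts on a gene. The lists were chosen with earlier results of these data known, so a high share is not a finding about a list. Room takes no account of width, and gaps with a remote site were the wider (median 2.44 Mb against 1.33 Mb). The counts of sites given below for single genes are of whole intervals and take no account of width either.

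Adhesion and synapse genes stood largely in such intervals, with 68 of 71 unlisted members, or 97.1% of the 70 with room. Examples are Negr1 (23 remote sites in its interval), the catenin gene Ctnna2 (19) and the guidance receptors Robo1 and Robo2 (16). Per Mb of remote ground the gap of Ctnna2 held 2.20 remote sites and that of Robo1 and Robo2 1.70. Both are below the 2.42 of all remote ground. The cadherin and protocadherin family, which overlaps this list, gave 27 of 95 unlisted members (28.4%, beside 32.3% of all unlisted coding genes). That is 96.4% of the 28 with room. Of genes of the Sox2 neural lineage, 21 of 35 unlisted members were in such an interval, 84% of the 25 with room. They include Meis2 (36 sites), Pou3f2 (25), Irx1 (17), Zic1 (16), Sox9 (10) and Pax6 (1). In the same order their gaps held 9.94, 2.48, 4.60, 3.42, 3.93 and 2.01 remote sites per Mb of remote ground. All 10 unlisted Zic and Irx genes, factors of early neural patterning, were in such an interval, as were the 9 genes of the Hoxd cluster, whereas the other 30 unlisted Hox genes were in intervals without room for a remote site.

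Of fibroblast genes, 24 of 44 unlisted members shared an interval with a remote site, 82.8% of the 29 with room. They include the cadherin Cdh2 (21 sites), the fibrillin Fbn1 (20), Zeb2 (20) and Twist1 (13), regulators of the mesenchymal state, and the receptor Pdgfra (4). In the same order their gaps held 3.19, 5.40, 2.09, 7.64 and 11.1 remote sites per Mb of remote ground, beside 2.42 over all of it. Only 9 of the pluripotency genes were unlisted, as the table itself is of embryonic stem cells. Of these, 3 were in such an interval, Fut9 (25 sites), Otx2 (5) and Nr0b1 (2), or 75% of the 4 with room. Markers of other cell types gave 4 of 13 for macrophages and blood, 4 of 9 for endothelium, 4 of 10 for muscle and 3 of 10 for epithelium. Of their members with room these were 4 of 4, 4 of 5, 4 of 4 and 3 of 3, beside 84% and 82.8% for the neural and fibroblast lists. Chromatin assembly genes gave 1 of 4, or 1 of the 2 with room, Asf1a (11 sites), a histone chaperone that hands histones to CAF-1.

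Other families of transcription factors gave 6 of 13 for Sox, 13 of 34 for Forkhead, 8 of 14 for POU and 6 of 14 for T-box genes, which are 85.7%, 86.7%, 80% and 75% of their members with room.

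Vomeronasal receptor, Zfp and olfactory receptor genes gave lower shares of the genes with room. Of 353 vomeronasal receptor genes, 74 were in an interval with a remote site, 23.9% of the 309 with room, and of 288 unlisted Zfp zinc finger genes 50 were, 43.5% of the 115 with room. Olfactory receptors gave 529 of 1109, 63.8% of those with room. As a share of all unlisted members that is 47.7%, above the 32.3% of all unlisted coding genes, so the order depends on the base. By that base vomeronasal receptor and Zfp genes gave 21.0% and 17.4%. Solute carriers, another large family, gave 89 of 276, or 78.8% of those with room. The vomeronasal, Zfp and olfactory receptor shares are below the 71.4% of all genes with room, and no test was made of these differences.

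Sites held by fewer lists were looked at to see whether remote ground differed in how the hairpins shared sites. Of the 5994 remote sites of any kind, 45.1% (43.8 to 46.3%) were held by all 3 lists, against 42.7% (42.0 to 43.4%) of 19438 near sites, and the remote share was the higher on 17 of 20 chromosomes. Among the 1257 remote sites held by exactly 2 lists, 670 (53.3%, 50.5 to 56.1%) were held by Renilla and Chaf1a.2122. Among the 4091 such near sites the share was 44.3% (42.8 to 45.8%), and the remote share was the higher on 18 of 20 chromosomes. The pairing of both hairpins against Chaf1a made up 26.5% (24.1 to 29.0%) of remote and 33.1% (31.7 to 34.6%) of near 2-list sites, lower in remote ground on 17 of 20 chromosomes.

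Sites held by Chaf1a.166 alone were 6.11% (5.51 to 6.74%) of remote and 8.39% (8.00 to 8.79%) of near sites, the lower share being remote on 19 of 20 chromosomes. Sites of Renilla alone were 749 of 5994 remote sites (12.496%, 11.67 to 13.36%) and 2233 of 19438 near sites (11.488%, 11.04 to 11.94%). For Chaf1a.2122 alone the shares were 15.3% of remote and 16.4% of near sites. Sites of either hairpin against Chaf1a alone were thus a lower share in remote ground, and sites of Renilla alone a higher one. The intervals of the remote and near shares were apart for Chaf1a.166 and overlapped for Chaf1a.2122 and Renilla. Chaf1a.166 also has the shortest list. With each list cut to its best 15888 positions, Renilla and Chaf1a.2122 made up 42.1% of remote and 33.9% of near 2-list sites, and Chaf1a.166 alone 9.54% and 12.6% of sites. Whether this belongs to the hairpin or to the single library cannot be told apart.

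The listed promoters beside the remote sites differed little in Sono-seq from other listed promoters. The 827 start sites that flank an interval with a remote site had median deposited values of 0.133 in CAF-1 knockdown and 0.132 in Renilla, and the 4686 others 0.143 and 0.145. The median log2 ratio of CAF-1 knockdown over Renilla was -0.02 (SD over promoters 0.23) for flanking and -0.01 (0.23) for other promoters. The value was higher in CAF-1 knockdown at 46.1% (42.6 to 49.5%) of flanking and 48.6% (47.2 to 50.0%) of other promoters. The sources used here give no unit for these values, and the remote sites themselves have no Sono-seq value in the table.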

How the data were processed

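Sox2 ChIP-seq positions (3 lists, 1 immunoprecipitate against 1 input each) and a Sono-seq table were used. The other samples of the 61 were not analysed here. The submitters' processing notes name mm9, BWA 0.7.8 and Bowtie. The caller of positions was not given in the sources used here. Each deposited position (in bp) has a score, a false discovery rate (q-value) and an enrichment ratio with a lower bound, per the file headers, which are the authors' values of single positions. The deposited Sono-seq values were treated as a score, since their unit is not given, and the log2 ratio of the 2 deposited values was computed here without a pseudocount.

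Sites, distances, percentiles and intervals (95%) were computed with Python 3.11.15, pandas 2.3.3, NumPy 2.4.6 and SciPy 1.17.1, and figures were drawn with matplotlib 3.10.9. The joining was checked on simulated lists. For a site with several positions in a list, the best counts. Density uses the span from the first to the last listed region or position of a chromosome. Unlisted genes come from the order of RefSeq coding genes between flanking listed genes, with 5486 of 5510 listed transcripts matched. Named sites are the 10 best by mean percentile, the 5 largest chains, the 5 fullest gaps, the 5 farthest, the 5 widest and 3 narrowest, and 3 on each side of the limit. The members and gene lists were chosen with earlier results of these data known. One of the 10 best sites and some genes are counted but not reported here by name.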

Additional observations from a re-analysis of the deposited data

How the results depend on the processing

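No paired analysis was possible because each hairpin has 1 list and each Sono-seq condition 1 value, and for the same reason no replicate was left out. Depth, antibody recovery and mappability of remote ground were not measured. The values below lay outside the main interval of a share, density or median, or differed from the main count by over 1.5 times; 96 of 150 alternative values did not. The pairing and the share of Chaf1a.166 alone were examined after seeing the data.

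Joining within 100 bp gave 5.55 near sites per Mb, 41.9% of remote and 39.7% of near sites in all 3 lists, 7.17% and 9.60% in Chaf1a.166 alone, and a spread of 44 bp for other shared sites. Joining within 500 bp gave 43.5% of near sites in all 3 lists.

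A limit of 250 kb gave 4226 remote sites (38.4% of shared), densities of 2.82 and 6.39 per Mb in remote and near ground, and 50.1% of remote 2-list sites in Renilla and Chaf1a.2122. A limit of 1 Mb gave 1265 remote sites (11.5%), densities of 1.91 and 5.13, 5.09% of remote sites in Chaf1a.166 alone, and a Chaf1a.2122 percentile 3.02 points above that of other shared sites. At these limits chromosome 11 had 25.4% and 4.93% of remote sites, chromosome 18 53.5% and 18.02%, and chromosome 19 26.6% and 2.42%, so that chromosome 11 was below chromosome 19 at 250 kb. With distance to start sites only, 26.2% of shared sites were remote.

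Lists of equal length gave densities of 2.27 and 5.33 per Mb, 47.7% and 44.7% of remote and near sites in all 3 lists, 42.1% and 33.9% of 2-list sites in Renilla and Chaf1a.2122, 9.54% and 12.6% of sites in Chaf1a.166 alone, a spread of 44 bp for other shared sites, and 26.8% of these with a neighbour. With enrichment lower bounds of at least 2, 1466 remote sites were left, with densities of 1.31 and 3.07 per Mb, 35.5% and 33.9% in all 3 lists, 42.2% and 34.7% in the pairing, 10.1% and 12.7% in Chaf1a.166 alone, spreads of 41 and 40 bp, and neighbours at 14.5% and 18.8%. Neighbour distances of 5 and 50 kb gave 13.5% and 16.2%, and 50.3% and 60.0%.

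Ranked by enrichment, the remote median percentile differed from that of other shared sites by 0 points in Renilla and was 0.89 points above it in Chaf1a.166, where it was 1.00 point below by score. In Chaf1a.166 it was also above with a limit of 250 kb, by 0.55 points, a value inside the main interval. In all 7 alternatives of joining, limit and lists, the remote density and neighbour share stayed below those of other shared sites, and the share of remote sites in all 3 lists and in the pairing stayed above. The causes were not tested.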
